A study of Mus musculus with 4 samples.

Results

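The circadian clock genes Arntl (also called Bmal1), Clock, Per1, Per2, Per3, Cry1, Nr1d1, Nr1d2, Dbp and Nfil3 were described in the fatty liver of aP2-SREBP-1c mice. A gene was included when a probe set of the array carried its symbol and no other, and this gave 10 genes of 19938 measured. Each of the 10 genes had 1 such probe set. The liver RNA came from 4 male aP2-SREBP-1c mice of a C57Bl6 background, which carry the HA-tagged N-terminal, transcriptionally active part of human SREBP-1c under the aP2 promoter. The transgene is therefore expressed in adipocytes, and the animals are lipodystrophic with massive hepatic steatosis. All mice were 24 weeks old according to the sample labels, were kept under a 12 h light/dark cycle with free access to chow, and were killed at 7 o'clock in the morning. The sources used here do not give the hour at which the light was switched on, so the circadian phase of the samples is not known exactly. The study set these livers against those of C57Bl6 and alb-SREBP-1c mice, which were not analysed here. The 4 mice form 1 group, and only levels and their spread between mice are described, with no p-value and no comparison of phenotypes.

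The circadian clock is a transcriptional feedback loop that runs in nearly every cell, and in liver it times much of lipid, glucose and bile acid metabolism. ARNTL and CLOCK form a heterodimer that binds E-boxes and activates Per, Cry, Nr1d and Dbp genes, and PER and CRY proteins return to inhibit that heterodimer. REV-ERB proteins, the products of Nr1d1 and Nr1d2, compete with ROR receptors for ROR response elements (RORE) and repress Arntl, Clock, Cry1 and Nfil3. DBP and NFIL3 bind the same D-box, DBP as an activator and NFIL3 as a repressor. In mouse liver, RNAs of the E-box genes and of the RORE genes reach their peaks at different times of day, so the 2 arms of the loop are largely in antiphase.

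Promoter windows from RefSeq on the GRCm38.p6 build, running from 250 bases before to 50 after a transcription start, were found for 9 of the 10 genes, with 13 windows in all because 3 genes had several. Per2 had none. Shown here are 4 windows that carry the binding element of their arm. They are those of the E-box arm with an E-box (CACGTG) or an E-prime box (CACGTT, here also read on the other strand) and those of the RORE arm with a RORE core (TAGGTCA or TGGGTCA on either strand). Capitals mark these elements. The Nr1d1 window lies at chr11:98775328-98775627 on the minus strand, Per1 at chr11:69098699-69098998 on the plus strand, Nfil3 at chr13:52980990-52981289 on the minus strand and Arntl at chr7:113207261-113207560 on the plus strand, and each is printed 5′ to 3′ along its gene.
Nr1d1: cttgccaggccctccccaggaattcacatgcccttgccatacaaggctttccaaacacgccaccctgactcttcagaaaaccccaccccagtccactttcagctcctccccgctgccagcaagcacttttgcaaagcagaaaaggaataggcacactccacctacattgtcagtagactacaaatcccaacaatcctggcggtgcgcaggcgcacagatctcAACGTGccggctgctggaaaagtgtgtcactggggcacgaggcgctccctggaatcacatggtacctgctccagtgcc
Per1: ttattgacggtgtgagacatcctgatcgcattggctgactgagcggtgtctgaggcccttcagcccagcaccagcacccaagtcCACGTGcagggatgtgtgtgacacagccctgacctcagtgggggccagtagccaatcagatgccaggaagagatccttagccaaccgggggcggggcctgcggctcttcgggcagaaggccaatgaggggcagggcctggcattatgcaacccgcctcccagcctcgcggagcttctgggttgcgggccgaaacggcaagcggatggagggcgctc
Nfil3: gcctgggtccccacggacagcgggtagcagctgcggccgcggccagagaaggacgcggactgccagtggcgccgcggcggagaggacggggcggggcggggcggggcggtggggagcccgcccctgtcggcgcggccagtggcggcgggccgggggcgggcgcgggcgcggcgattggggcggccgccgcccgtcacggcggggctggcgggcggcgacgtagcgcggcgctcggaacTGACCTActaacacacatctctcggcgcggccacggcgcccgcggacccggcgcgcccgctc
Arntl: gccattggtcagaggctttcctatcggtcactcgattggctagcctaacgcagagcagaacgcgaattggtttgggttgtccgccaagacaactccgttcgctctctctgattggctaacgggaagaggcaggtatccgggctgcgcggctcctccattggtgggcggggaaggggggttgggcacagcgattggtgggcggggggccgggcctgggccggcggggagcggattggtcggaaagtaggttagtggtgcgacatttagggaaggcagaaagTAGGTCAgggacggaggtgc

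In Nr1d1 the E-prime box began 28 bases upstream of the start and in Per1 the E-box began 166 bases upstream. The RORE core of Nfil3, read on the opposite strand, began 12 bases upstream, and that of this Arntl window lay at base 31 of the transcript. Cry1, which is placed in the RORE arm, held no RORE core but an E-box and an E-prime box, beginning 60 and 79 bases upstream. The Per3 window held the D-box TTATGTAA at 2 places, 205 and 158 bases upstream. Of all 32851 windows of the table, 7.15% held an E-box, 4.68% an E-prime box, 1.06% a D-box (TTATGTAA or TTACGTAA) and 6.45% a RORE core. A cAMP response element (TGACGTCA), present in 1.79% of all windows, was found in no window of these genes. No match in these windows overlapped another. A match describes the letters of the window and was not tested for binding, and the genes without a match may hold elements elsewhere.

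All 10 clock genes were above background on all 4 arrays. A gene counted as above background when it exceeded, on every array, the 95th percentile of that array's 1210 olfactory and vomeronasal receptor probe sets, and this limit was 5.33 to 5.52 on the log2 scale. It was exceeded by 12264 of the 19938 genes. Values are log2 expression values, 1 unit being a doubling, and levels of different genes were not ranked, because probe sets differ in how brightly they hybridize. The 9 hepatocyte markers were all above background and lay between 10.19 and 14.37, with a median SD between mice of 0.06. The array of mouse 1 was compressed, so that, among 10 equal classes of mean expression, the lowest class was raised by 0.13 (median over genes) relative to the other arrays and the highest class differed by -0.23. Of the genes whose highest and lowest mouse were more than 1.5-fold apart, 88.4% had their highest or lowest value in mouse 1. Markers of other cells varied too. Of 10 measured pancreatic acinar markers, 8 were above background (Pnliprp1 and Zg16 were not). All 8 varied by more than 1.5-fold, against 12.9% of all genes above background. The median level of all 10 was 8.22, 6.18, 6.63 and 8.11 in mice 1 to 4. Ctrb1, Ctrl and Cpa1 varied most. All 5 stellate cell markers were above background, with median differences from the 4-mouse mean of -0.29, 0.28, 0.23 and -0.08. Lrat, Dcn and Col1a1 varied most, and these 3 of the 5 exceeded 1.5-fold. Of 3 adipocyte markers only Plin1 was above background, at 6.32, 5.90, 5.36 and 5.49. The medians of the Kupffer cell, sinusoidal endothelial, cholangiocyte and lymphocyte markers stayed within 0.15 of the 4-mouse mean in each mouse. Single markers did not always do so. Beyond 1.5-fold were 2 of 6 Kupffer cell and 1 of 5 sinusoidal endothelial markers, against 12.9% of all genes above background. The Kupffer cell markers Marco and Vsig4, picked out after their values were seen, were at 0.53 and -0.44 in mouse 1. Since whole liver was measured, fewer cells of a type and less RNA per cell cannot be told apart.

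**Figure D1:**
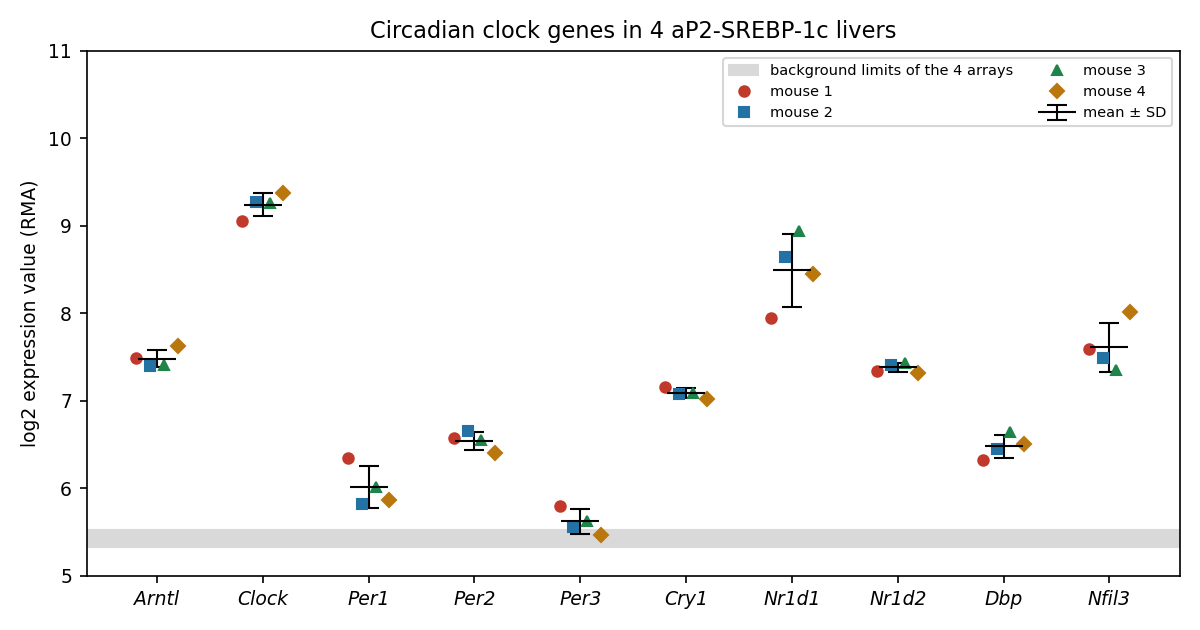
Log2 expression values of the 10 clock genes in 4 aP2-SREBP-1c livers, with the mean and SD of each gene in black and the range of the background limits as a grey band. Nr1d1 is spread from 7.95 to 8.94 and Nfil3 from 7.35 to 8.01, whereas the 4 values of Nr1d2 and of Cry1 nearly coincide. Per3 lies close to the grey band, and its value in mouse 4 (5.47) is inside the band but above the limit of that mouse's own array (5.33).

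Most clock genes differed little between the livers. Only Nr1d1 and Nfil3 varied by more than 1.5-fold over the 4 mice, 2 of the 10 genes, against 12.9% of all genes above background. Against that background, 2 of 10 is no result about the clock genes as a set. The median SD was 0.13 for the 10 clock genes and 0.15 for all genes above background. The other 8 clock genes ranged from 1.08-fold for Nr1d2 to 1.44-fold for Per1. After quantile normalization of the 4 arrays, again Nr1d1 and Nfil3 and no other clock gene exceeded 1.5-fold, against 10.6% of all genes.

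Both activators varied little. Arntl, which encodes the obligatory partner of CLOCK, was measured at 7.49, 7.40, 7.41 and 7.62 in mice 1 to 4 (7.48 ± 0.10, SD, n = 4). Clock, which encodes the other subunit of the heterodimer, was measured at 9.05, 9.27, 9.26 and 9.37 (9.24 ± 0.13, SD, n = 4). Both genes had their highest value in mouse 4, and the whole range was 1.17-fold for Arntl and 1.25-fold for Clock. Clock belongs to the highest expression class, which was lower as a whole on the array of mouse 1, and after quantile normalization its difference in mouse 1 was -0.03 in place of -0.19. Without mouse 1, Clock ranged over 1.08-fold and Arntl over 1.17-fold. Of all genes above background, 75.8% had an SD at least as large as Arntl and 59.9% at least as large as Clock.

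The repressors PER and CRY were represented by 4 genes. Per1, which is also induced by glucocorticoids and feeding signals, was measured at 6.35, 5.82, 6.01 and 5.86 in mice 1 to 4 (6.01 ± 0.24, SD, n = 4). Per2, whose product inhibits CLOCK-ARNTL together with CRY proteins, was measured at 6.57, 6.65, 6.55 and 6.40 (6.54 ± 0.10, SD, n = 4). Per3, the Period gene that is not needed for the core rhythm in mice, was measured at 5.80, 5.56, 5.63 and 5.47 (5.62 ± 0.14, SD, n = 4). Mouse 1 was the highest for Per1 and Per3 (the range of Per1 was 1.44-fold with it and 1.15-fold without it), and mouse 4 the lowest for Per2 and Per3. Cry1, a strong repressor of CLOCK-ARNTL, was measured at 7.16, 7.08, 7.09 and 7.02 (7.09 ± 0.06, SD, n = 4), also with its extremes in mice 1 and 4. Signal over background limits these values, because Per3 exceeded the limit by only 0.23 on average and Per1 by 0.62. With the 99th percentile of the receptor probe sets as limit, Per1 and Per3 were no longer above background, whereas Per2 and Cry1 were. Per3 belongs to the lowest expression class, which was raised on the array of mouse 1. After quantile normalization, Per1 of mouse 1 was still 0.32 above the 4-mouse mean and Per3 0.13 above it.

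In mouse 4, the activators Arntl and Clock stood above the 4-mouse mean and the PER and CRY genes among the 10 below it, whereas Nfil3, the D-box repressor, was farthest above it. The differences were 0.14 for Arntl, 0.13 for Clock and 0.39 for Nfil3, and -0.15, -0.14, -0.15 and -0.07 for Per1, Per2, Per3 and Cry1. Nr1d1 (-0.04) and Nr1d2 (-0.05) were slightly below it as well, and Dbp (0.03) slightly above. Altogether 6 of 10 clock genes were below the mean in mouse 4, as were 46.4% of all genes above background. The signs of all 10 genes in mouse 4 were the same after quantile normalization, with 0.12 for Arntl, 0.09 for Clock and 0.36 for Nfil3 against -0.13, -0.13, -0.12 and -0.08 for Per1, Per2, Per3 and Cry1. Apart from Nfil3, these deviations of mouse 4 were at most 0.15, and the arrangement was seen after the values were known and has no test. Acinar markers were high in mouse 4, with a median difference of 0.88, and also in mouse 1 (1.03), where Per1, Per2, Per3 and Cry1 were all above the mean, and their part was not tested. Cry2, a CRY gene outside the 10 and picked out after its values were seen, went the other way. It was at 0.06 in mouse 4 and -0.29 in mouse 1, with the same differences after quantile normalization.

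**Figure D2:**
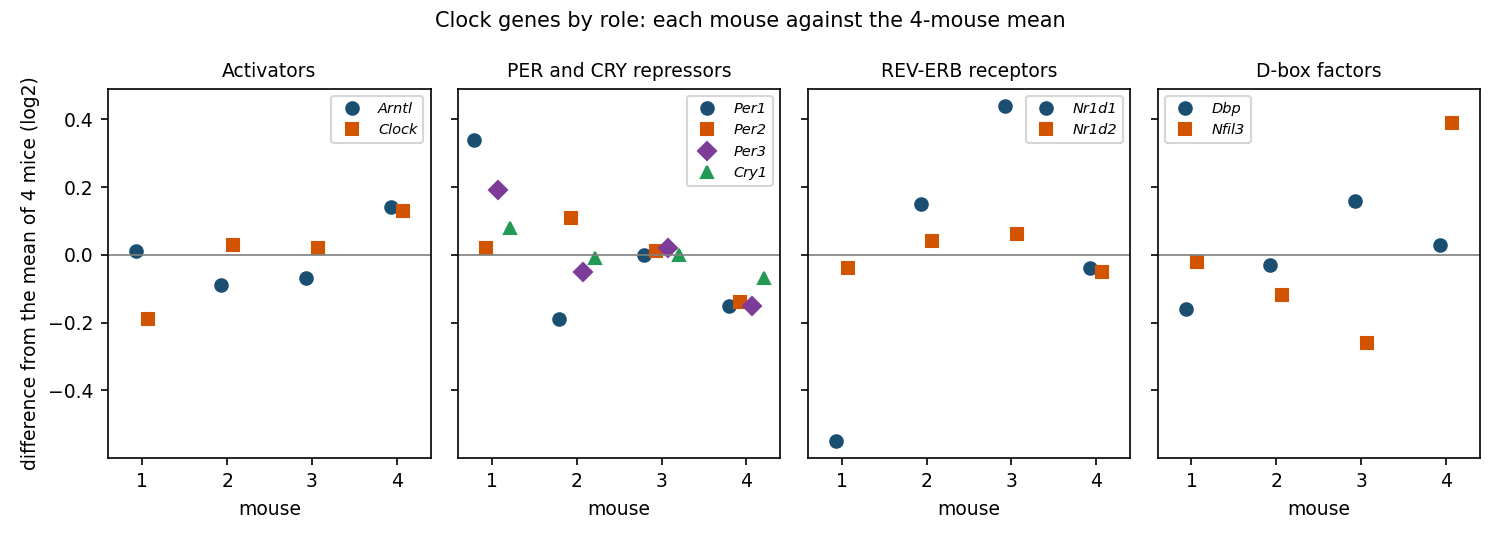
Difference of each mouse from the mean of the 4 mice on the log2 scale, for the activators, the PER and CRY repressors, the REV-ERB receptors and the D-box factors. In mouse 4 both activators and Nfil3 lie above the zero line and the 4 PER and CRY genes below it. Nr1d1 spans from -0.55 in mouse 1 to 0.44 in mouse 3, while Nr1d2 stays within 0.06 of zero.

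The REV-ERB receptors differed most from each other in their spread. Nr1d1, which encodes REV-ERB alpha, a heme-binding repressor of Arntl and of lipid genes (probe set 10390691), was measured at 7.95, 8.64, 8.94 and 8.45 in mice 1 to 4 (8.49 ± 0.42, SD, n = 4). Its 95% confidence interval from limma was 8.20 to 8.78. Mouse 3 exceeded mouse 1 by 1.99-fold, and an SD at least as large was found in 1.72% of all genes above background and in 2.37% of those in its own expression class. Nr1d2, which encodes the closely related REV-ERB beta, was measured at 7.34, 7.41, 7.43 and 7.32 (7.38 ± 0.05, SD, n = 4), a range of 1.08-fold. Nr1d2 thus varied least of the 10 clock genes, and 95.2% of all genes had an SD at least as large. In both receptor genes, mice 2 and 3 were higher than mice 1 and 4 in the deposited values. After quantile normalization this no longer held for Nr1d2. Its differences from the 4-mouse mean were then 0.05, 0.02, 0.00 and -0.07 in mice 1 to 4, with mouse 1 highest.
The range of Nr1d1 rests partly on mouse 1. Without mouse 1 it was 1.40-fold, so that Nr1d1 no longer exceeded 1.5-fold. It then had an SD of 0.25, which 7.46% of all genes reached. After quantile normalization, Nr1d1 differed from the 4-mouse mean by -0.42, 0.13, 0.37 and -0.08 in mice 1 to 4, a range of 1.73-fold. The order of the mice for Nr1d1, with mouse 1 lowest, then mice 4, 2 and 3, was shared by 14.3% of all genes above background and was the most frequent of the 24 possible orders. Some marker genes are set beside Nr1d1 here. The acinar protease gene Ctrb1 was measured at 9.49, 6.58, 7.14 and 9.01 in mice 1 to 4. It was higher in mice 1 and 4, which had less Nr1d1 RNA than mice 2 and 3. Its order of mice was not the reverse of that of Nr1d1, since Ctrb1 was lowest in mouse 2 and Nr1d1 highest in mouse 3. The stellate cell gene Lrat, which encodes the enzyme of retinol esterification, was measured at 8.29, 9.23, 9.33 and 8.84, in the same order of mice as Nr1d1. Of the 5 stellate cell markers, 3 had that order, and so had 6 of the 9 hepatocyte markers, while the stellate cell marker Des, picked out after its values were seen, was measured at 6.07, 6.02, 5.97 and 5.59, highest in mouse 1. The part of either cell type in the Nr1d1 values was not tested. Thra, the thyroid hormone receptor gene whose end overlaps Nr1d1 on the opposite strand, was measured at 7.84, 7.55, 7.88 and 7.70, with mouse 1 above its mean.

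The D-box factors differed from each other in their spread and in the order of the mice. Dbp, an activator of output genes and itself a direct CLOCK-ARNTL target, was measured at 6.32, 6.45, 6.64 and 6.51 in mice 1 to 4 (6.48 ± 0.13, SD, n = 4). Nfil3, the repressor at the same element and a REV-ERB target (probe set 10409278), was measured at 7.59, 7.49, 7.35 and 8.01 (7.61 ± 0.28, SD, n = 4, 95% confidence interval 7.38 to 7.84). Dbp was highest and Nfil3 lowest in mouse 3, where Nr1d1 was highest too. In mouse 1, where Nr1d1 was lowest (-0.55 from its mean), Nfil3 was at -0.02. In mouse 4, where Nfil3 was highest (0.39), Nr1d1 was at -0.04. These mice were set side by side after the values were seen, and a relation was not tested. The range was 1.25-fold for Dbp and 1.57-fold for Nfil3. The range of Nfil3 rests on mice 3 and 4, being 1.43-fold without mouse 3 and 1.18-fold without mouse 4. Without mouse 1 it was again 1.57-fold. In that setting, 2.70% of the 12759 genes above background on the remaining arrays differed by more than 1.5-fold, and Nfil3 was the clock gene that still did so. Of the 12264 genes above background on all 4 arrays, 1.48% then had an SD at least as large. Over all 4 mice 10.3% of all genes had an SD at least as large as Nfil3, and without mouse 4 it was 62.7%. The order of the mice for Nfil3, with mouse 3 lowest, then mice 2, 1 and 4, was shared by 2.59% of all genes above background.
Compared pair by pair, the livers differed by more than 1.5-fold in Nr1d1 between mice 1 and 2 and between mice 1 and 3, and in Nfil3 between mice 3 and 4. Of all genes above background, 6.58% differed by that much between mice 1 and 2, 8.15% between mice 1 and 3 and 1.36% between mice 3 and 4. No clock gene did so between mice 1 and 4, 2 and 3, or 2 and 4, where the share of all genes was 4.11%, 0.4% and 1.82%. The median absolute difference of the 10 genes was 0.08 between mice 2 and 3, whose arrays were most alike over all genes, and 0.25 between mice 1 and 4. Over all genes above background it was 0.11 and 0.20 for the same pairs.

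**Figure D3:**
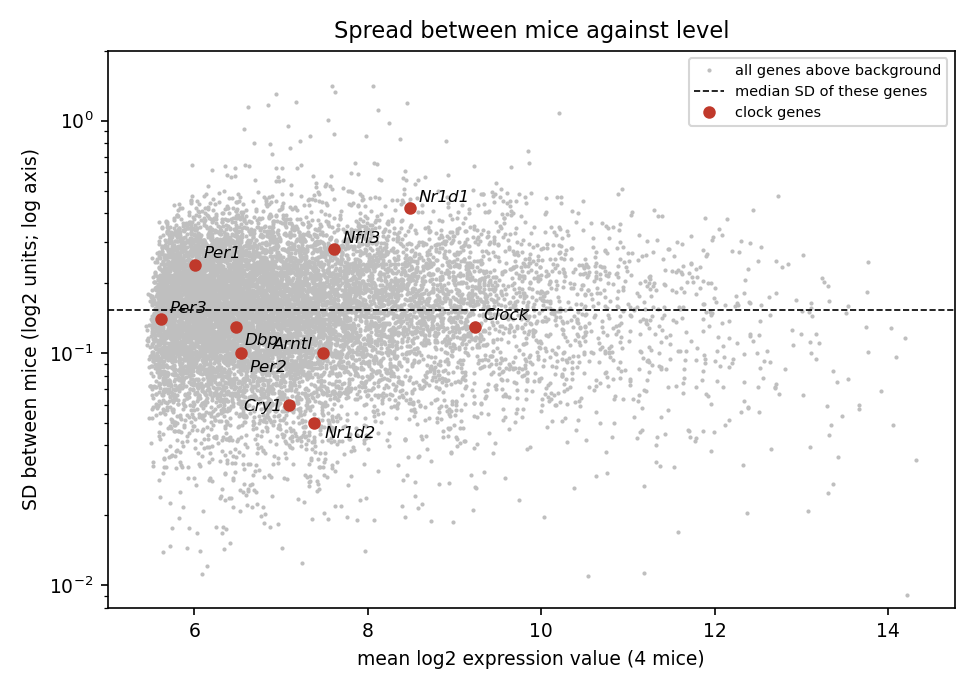
SD between the 4 mice (log axis) against the mean log2 expression value, for the 10 clock genes in red and for all 12264 genes above background in grey, with the median SD of the latter as a dashed line. Nr1d1 (0.42), Nfil3 (0.28) and Per1 (0.24) lie above that line, and Cry1 (0.06) and Nr1d2 (0.05) lie low in the cloud.

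Taken by arm, the E-box genes (Per1, Per2, Per3, Nr1d1, Nr1d2 and Dbp) had median differences from the 4-mouse mean of -0.01, 0.00, 0.04 and -0.10 in mice 1 to 4. The RORE genes (Arntl, Clock, Cry1 and Nfil3) had 0.00, -0.05, -0.03 and 0.14. In mouse 1 the E-box arm held Nr1d1 at -0.55 beside Per1 at 0.34, and in mouse 4 the RORE arm held Nfil3 at 0.39 beside Cry1 at -0.07. In mouse 3 none of the 6 E-box genes was below the mean, as against 38.8% of all genes above background, with differences between 0.00 for Per1 and 0.44 for Nr1d1. Per2 (0.01) and Per3 (0.02) were also close to the mean, and after quantile normalization 1 of the 6 was below it. The signs in mouse 3 were picked out after the values were seen and have no test. Over all genes above background, the medians were -0.06, 0.02, 0.04 and 0.01.

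Further factors of the loop above background had a median SD of 0.13, as did the 10 clock genes. Of 9 measured auxiliary factors, 5 were above background and none of these exceeded 1.5-fold, against 12.9% of all genes. Bhlhe40, which encodes the E-box repressor DEC1, had values of 8.60, 8.67, 8.55 and 8.70, and Hlf, a D-box activator related to Dbp, of 7.52, 7.56, 7.42 and 7.44. Cry2, the paralog of Cry1 which was picked out after its values were seen, was measured at 6.30, 6.63, 6.78 and 6.64, lowest in mouse 1, where Cry1 was highest. Rora, the activator that competes with REV-ERB proteins and was likewise picked out afterwards, was measured at 8.81, 8.73, 8.72 and 8.99. Rora was the only gene of the clock-related lists above background that shared the mouse order of Nfil3, over a range of 1.21-fold. Arntl2, Rorb, Bhlhe41 and Ciart were not above background.
Among enzymes that modify or degrade clock proteins, 7 of 8 measured genes were above background. Of these, 1, the kinase gene Gsk3b, exceeded 1.5-fold, against 12.9% of all genes. Gsk3b was measured at 8.02, 8.57, 8.61 and 8.55, so that its range came from mouse 1 and was 1.04-fold without it. Csnk1a1, a casein kinase gene, and Usp2, a deubiquitinase gene, varied least, with SDs of 0.06 and 0.07. None of the 7 measured corepressor and chromatin genes exceeded 1.5-fold, against 12.9% of all genes, and Crebbp (0.06) and Sin3a (0.07) had the smallest SDs.

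The rhythmic output genes had a median SD of 0.17, against 0.15 for all genes above background. This list had 9 measured genes, all above background, and 2 exceeded 1.5-fold, against 12.9% of all genes. Rgs16, a regulator of G protein signalling with a daily rhythm in liver, was measured at 7.54, 8.36, 8.57 and 7.88 in mice 1 to 4 (8.09 ± 0.47, SD, n = 4). Nr1i3, which encodes the xenobiotic receptor CAR, was measured at 7.45, 8.20, 8.17 and 7.78 (7.90 ± 0.36, SD, n = 4). In both genes, as in Nr1d1, mice 2 and 3 were higher than mice 1 and 4. The range of Rgs16 was 2.05-fold, and 1.62-fold without mouse 1, whereas that of Nr1i3 was 1.69-fold and 1.35-fold. Gys2, the liver glycogen synthase gene, and Elovl3, a fatty acid elongase gene, had the smallest SDs of this list, 0.15 and 0.07. An SD at least as large was found in 53.2% of all genes for Gys2 and in 90.1% for Elovl3.
Of genes set by body temperature or glucocorticoids, all 9 measured were above background and 4 exceeded 1.5-fold, against 12.9% of all genes. After quantile normalization 1 did, Tsc22d3, against 10.6% of all genes. Tsc22d3, a glucocorticoid-induced gene also known as Gilz, was measured at 6.30, 6.92, 7.08 and 6.72 (6.76 ± 0.34, SD, n = 4). The cold-inducible Rbm3 was measured at 9.23, 9.89, 9.85 and 9.53, the heat shock gene Hsph1 at 8.03, 8.62, 8.68 and 8.25, and the co-chaperone gene Dnaja1 at 9.66, 10.18, 10.27 and 9.89. All 4 were lowest in mouse 1, and none exceeded 1.5-fold without it. Cirbp, the other cold-inducible gene of the list, and Sgk1, another glucocorticoid target, had SDs of 0.07 and 0.06. Across the 5 clock-related lists, 7 of the 37 genes above background exceeded 1.5-fold (12.9% of all genes), and 3 did after quantile normalization (10.6% of all genes). Without mouse 1 it was 1 of the 37, Rgs16, against 2.70% of the genes above background on the remaining arrays. These counts are no result about these lists. Of these 37 genes, 30 (81.1%) were below the 4-mouse mean in mouse 1, against 62.4% of all genes. After quantile normalization 25 of the 37 were below it, and 6536 of all 12264 genes. The mouse order of Nr1d1 was found in 11 of the 37, against 14.3% of all genes, and these shares were not tested.

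**Figure D4:**
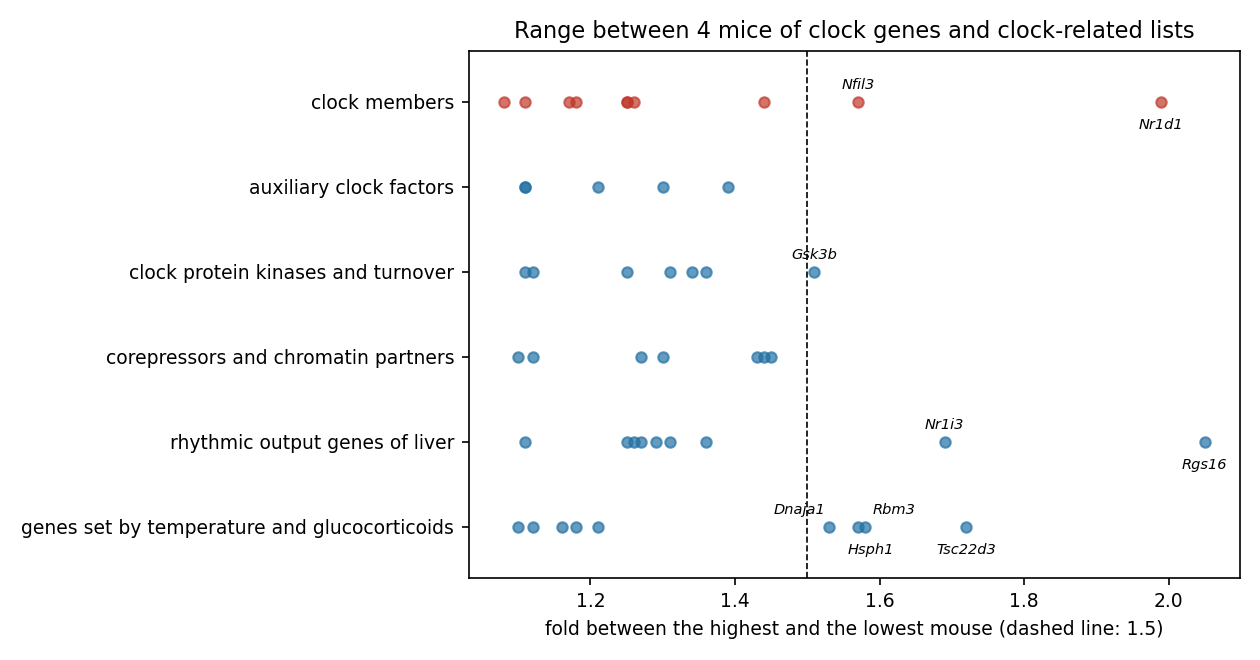
Range over the 4 mice, as fold of the highest over the lowest, for the 10 clock genes and for the genes above background of 5 clock-related lists, 1 point per gene, with the 1.5-fold limit as a dashed line and the genes beyond it named. Nr1d1 (1.99) and Rgs16 (2.05) lie farthest to the right.

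The genes with values most like those of Nr1d1 and Nfil3 were sought among all genes above background, by the root mean square difference of the centred log2 values over the 4 mice. For Nr1d1 these were Extl3 (0.022), Abcd2 (0.029) and Cd53 (0.030). Extl3 was measured at 6.66, 7.32, 7.65 and 7.11 in mice 1 to 4. For Nfil3 they were Rad1 (0.038), Serpinb6b (0.039) and Trim44 (0.042). Rad1 was measured at 5.81, 5.68, 5.48 and 6.14. None of these 6 genes belongs to a list used here.

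**Figure D5:**
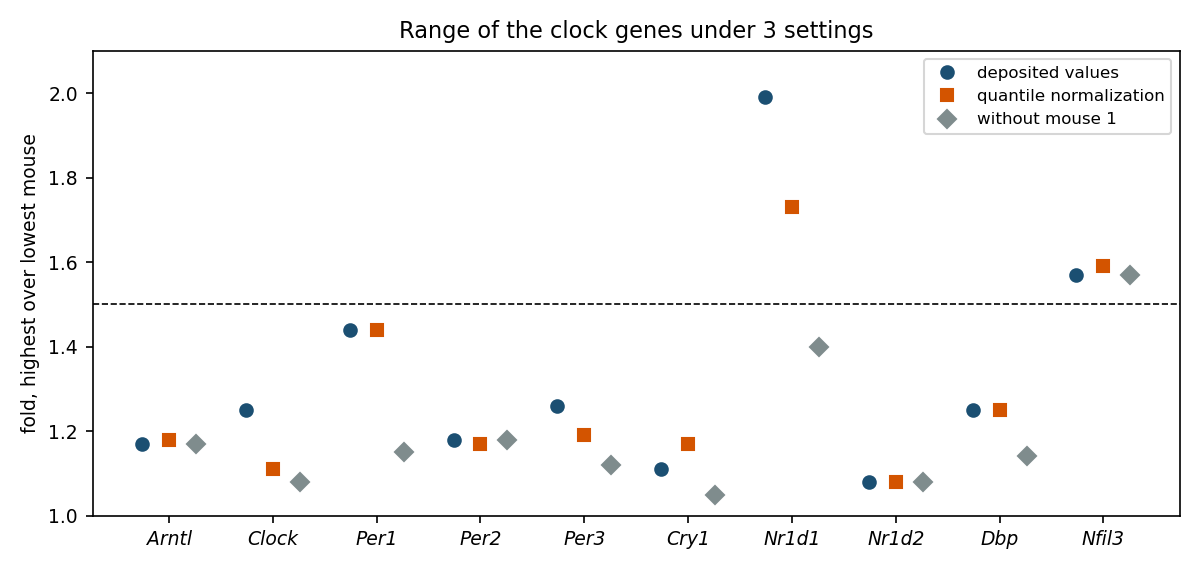
Range over the mice, as fold of the highest over the lowest, of each clock gene with the deposited values, after quantile normalization and without mouse 1, with the 1.5-fold limit as a dashed line. Nfil3 lies above the line in all 3 settings (1.57, 1.59 and 1.57), and Nr1d1 in the first 2 (1.99 and 1.73) but not without mouse 1 (1.40).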

How the data were processed

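Liver RNA (150 ng) of each mouse was measured on its own 1-colour array (Mouse Gene 1.0 ST). The authors deposited log2 expression values at gene level, which the submitters' processing notes credit to the Affymetrix Expression Console and RMA. RMA corrects background, quantile-normalizes arrays and summarizes each probe set, which lessens differences between arrays. Which arrays were normalized together and the genome build are not given in the sources used here. No column remained without a mouse.

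Of 35556 probe sets, 21789 carried 1 gene symbol in the platform annotation, 1621 several and 12146 were unnamed here. For each gene, the probe set with the highest mean was used. Symbols were checked by gene identifier against RefSeq (21698 matched, 0 changed). Means and SDs were taken over the 4 mice, and 95% confidence intervals came from limma's moderated variances (limma 3.58.1, R 4.3.3). The number of arrays limits the precision. Nothing in the labels ties mice to a litter or batch. Other steps used Python 3.11.15, numpy 2.4.6, pandas 2.3.3 and matplotlib 3.10.9. The intervals were tested on simulated data.

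The members and gene lists were chosen with earlier results of these data known. Named are all members, the genes of each list beyond 1.5-fold and the 2 with the smallest SD, the 3 genes most like each of the 2 most variable members, and of marker lists whose median spans more than 0.3 between mice the 3 with the largest SD. Alternatives were median-centred or quantile-normalized arrays, the mean of all probe sets, other background limits, no filter, a 2-fold limit and leaving out each mouse.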

Additional observations from a re-analysis of the deposited data

Results flagged for a closer look

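In 2 of the 40 genes chosen by the naming rule, 1 mouse stood apart from the other 3 by more than Dixon's 95% criterion for 4 samples, and neither is one of the 10 clock genes. Gsk3b in mouse 1 differed by -0.56 from the mean of the other mice and Elovl3 in mouse 1 by -0.14. Of all genes above background, 5.75% met the criterion, and chance flags about 1 in 20 groups. By the same criterion the background limit was unusual in mouse 1, at 5.52 against 5.33 to 5.35 in the other mice. Mouse 1 is the mouse with the compressed array.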

How the results depend on the processing

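All 10 clock genes were above background under every limit tried, except Per1 and Per3 at the 99th percentile. Of the clock genes, 2 varied by more than 1.5-fold, which became 0 for a limit of 2-fold and 1 to 2 with 1 mouse left out. It was 1 without mouse 1 (Nfil3 only) and 1 without mouse 3 or mouse 4 (Nr1d1 only). Over all genes the count was 1584, 138 with a 2-fold limit, 3749 without a filter on low values and 344 to 1294 with 1 mouse left out, the lowest without mouse 1. The RORE arm of mouse 1 had a median difference of 0.10 after quantile normalization. With the 99th percentile limit, which drops Per1 and Per3, the E-box arm had -0.10, 0.07 and 0.11 in mice 1, 2 and 3. Of 72 arm medians under alternatives, the other 68 moved by less than the SD between mice (0.06 for the E-box arm, 0.08 for the RORE arm). All 70 levels of single clock genes and all 10 values of the median SD moved by less than their error. Where no mouse or gene was left out, the cause of a move was not tested. Many of these values could not move, so their number says little about robustness. Each clock gene had 1 probe set and all 10 passed the 90th percentile limit. The mean of all probe sets, that limit and no filter therefore returned the same arm medians. Median centring leaves a mean over the 4 mice unchanged, and leaving out 1 mouse shifts it by only part of the SD. Median centring and the mean of all probe sets changed no count by more than 1.5 times. No paired analysis was possible because a second group is lacking.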
